A study of Mus musculus with 2 samples.

Results

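The genes described here are the cytosolic ribosomal protein genes, 85 of the 18685 gene rows of a single-cell library from mouse tumours. They were chosen by symbol alone: every row named Rpl or Rps with a number, Rplp0 to Rplp2 and Rpsa, without the Rps6 kinases and without 4 rows marked as pseudogene-like copies by "-ps". Of these, 77 are core subunits, 31 of the small and 46 of the large ribosomal subunit. The other 8 are relatives. Rpl3l, Rpl7l1, Rpl22l1, Rpl36al, Rpl39l, Rps27l and Rps27rt are paralogs, genes of common descent with a core gene. Rps19bp1 encodes a protein that binds Rps19 and is not a ribosomal protein. A minimum of 10 UMIs (unique molecular identifiers, counted molecules) was passed by 84, all but Rpl39l with 8. Tumours were grafts of Hep1-6, a mouse hepatoma line, in male wild-type C57BL/6 mice 6 to 8 weeks old, kept on normal diet and free of specific pathogens. Mice were injected intraperitoneally with SIGLEC15 antibody or, as the control, with IgG, 3 mice per group by the design text and 1 library per group. Before loading, cells enriched with anti-CD45 beads were mixed with an equal part of unenriched tumour cells. Rpl7 was the only one of these genes whose row was complete in the IgG matrix as held here, so the other members are described in the antibody library alone.

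Each ribosome carries 1 copy of almost every core protein, and cells therefore make the proteins in matched amounts. In mammals the mRNAs share a tract of pyrimidines at the 5′ end, the TOP motif, through which mTOR signalling and Larp1 set their translation, and Myc drives their transcription. Dividing cells spend much of their mRNA on this family, and a few members have roles outside the ribosome: free Rpl5 and Rpl11 bind the p53 inhibitor Mdm2, and Rpsa is also known as a laminin receptor.

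The windows below run 15 bases to each side of the annotated transcript start and are shown because the pyrimidine tract is the sequence feature that the family shares. They come from RefSeq (GRCm38.p6) and read 5′ to 3′ on the transcribed strand, with the longest unbroken run of C and T that touches the 10 bases either side of the start in capitals. Rps27, Rps9 and Rpl35a held a larger part of the family's mRNA in the MDSC clusters described further on, and Rps18, Rpl12 and Rps4x a smaller part. Rpl22l1 and Rps27l are relatives shown beside their core partners Rpl22 and Rps27, and Rps27rt is a near copy of Rps27.
Rps27 (chr3:90213634-90213663, minus strand): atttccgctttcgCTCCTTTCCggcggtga
Rps27rt (chr9:114982725-114982754, minus strand): agaacttaTCCCTTgctttccggcggtgac
Rps27l (chr9:66946071-66946100, plus strand): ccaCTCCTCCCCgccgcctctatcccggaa
Rps9 (chr7:3704026-3704055, plus strand): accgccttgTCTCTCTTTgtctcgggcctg
Rpl35a (chr16:33056438-33056467, plus strand): gcggggcgtgcgTCCCacaaggccgcgcgg
Rps18 (chr17:33955651-33955680, minus strand): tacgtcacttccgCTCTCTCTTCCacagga
Rpl12 (chr2:32961697-32961726, plus strand): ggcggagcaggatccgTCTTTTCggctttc
Rps4x (chrX:102189377-102189406, minus strand): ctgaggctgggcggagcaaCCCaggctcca
Rpl22l1 (chr3:28805493-28805522, plus strand): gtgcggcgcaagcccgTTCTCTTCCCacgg
Rpl22 (chr4:152325711-152325740, plus strand): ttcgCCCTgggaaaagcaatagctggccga

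Of the 57 core members with an entry in the promoter table, 25 (43.9%) had a run of at least 8 pyrimidines, against 3651 of 27025 symbols in the whole table (13.5%) and 1603 of 11527 measured symbols (13.9%). The run was 9 bases in Rps27 and Rps9 and 4 in Rpl35a, and it was 11 in Rps18, 7 in Rpl12 and 3 in Rps4x, so long and short runs stood on both sides. An annotated start can lie several bases from the one used in these cells, so a short run says only that these letters are not in the window.

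The antibody library held 5482 cells with 74168827 UMIs and a median of 13714.5 UMIs per cell. The authors' deposited cluster names gave 30 clusters, of which 26 had at least 50 cells. They were grouped into T cells (CD8_T_1, CD8_T_2 and CD4_T), MDSC_1 to MDSC_4, macrophages, DC, fibroblasts and endothelial cells together, and tumour cells. The markers of each label were highest in its class for T cells (7 of 7 markers detected, 3252 CPM in sum, that is UMIs scaled to 1000000 per class), macrophages (6 of 6, 8113 CPM), fibroblasts (5 of 5, 28745 CPM) and tumour cells (9 of 9 hepatoma markers, 17167 CPM). MDSC_1 to MDSC_4 held 58449 CPM of 5 neutrophil markers. In the DC cluster dendritic cell markers summed to 115 CPM, below 2407 CPM of monocyte markers, so the name DC is the authors' name only. MDSC_5 was kept apart, since its 37 cells held 987 CPM of neutrophil and 10775 CPM of hepatoma markers. With 1 library no difference between clusters has a replicate check, the clusters were drawn from expression that includes these genes, and no test was made. Intervals are exact 95% intervals and cover counting error only.

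The family took 30.5% of all UMIs, and its share differed widely between cell classes. T cells spent 28.2% of their UMIs on it, MDSC_1 to MDSC_4 6.07%, macrophages 18.5%, DC 20.95%, fibroblasts and endothelial cells 21.5%, and tumour cells 32.0%. T cells therefore stood nearest to tumour cells, at 0.882 times their share (95% interval 0.880 to 0.885), and MDSC_1 to MDSC_4 farthest, at 0.190 times (0.188 to 0.191). Macrophages were at 0.578 times the tumour share (0.577 to 0.580), DC at 0.655 times (0.652 to 0.658), and fibroblasts and endothelial cells at 0.670 times (0.668 to 0.672). Within the last class, Fibroblast&Endothelial_1 held 20.3% (0.635 times the tumour share) and Fibroblast&Endothelial_2 25.3% (0.792 times). Hepatoma markers were at 646 CPM in Fibroblast&Endothelial_1 and 6648 CPM in Fibroblast&Endothelial_2, and their part in these shares was not tested. A median cell held 60 member UMIs in MDSC_1 to MDSC_4 and 6395 in tumour cells. Fewer transcripts of the family per cell and more of other transcripts cannot be told apart in a share.

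**Figure D1:**
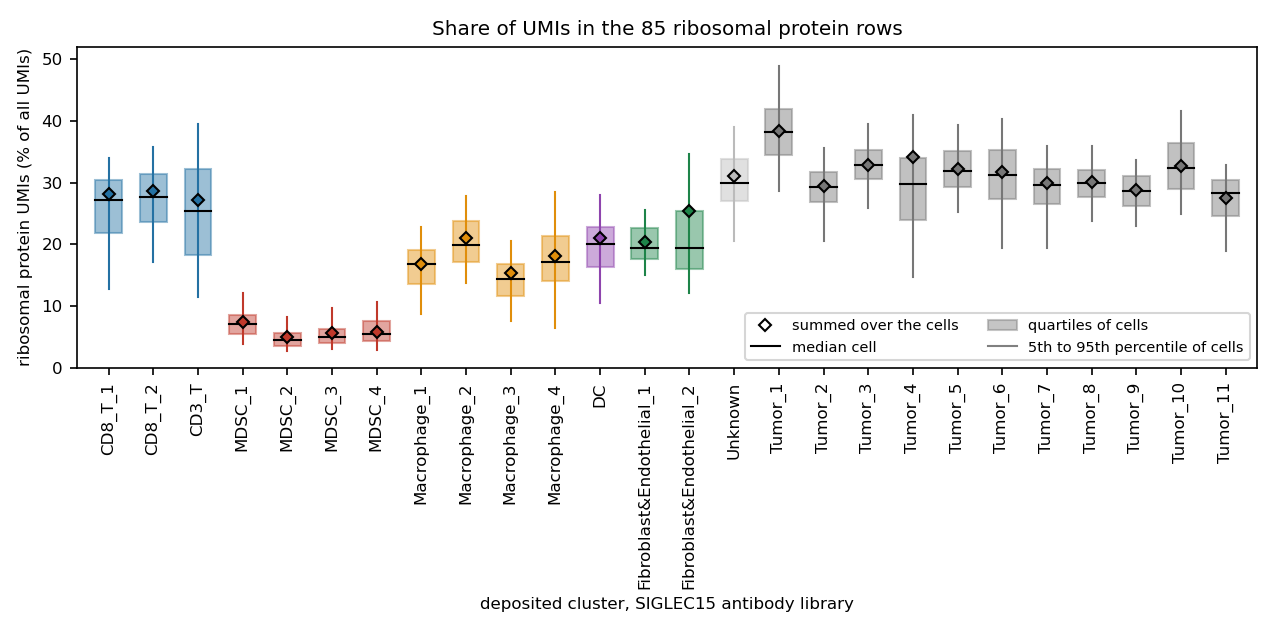
Ribosomal protein UMIs as a percentage of all UMIs (vertical axis) in each deposited cluster with at least 50 cells. Diamonds are summed UMIs, black lines the median cell, boxes the quartiles and thin lines the 5th to 95th percentile of cells. MDSC_1 to MDSC_4 lie between 4.98% and 7.47%, below every other cluster, and Tumor_1 is highest at 38.4%.

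The low share of the MDSC clusters was found in all 4 of them, with 7.47% in MDSC_1, 4.98% in MDSC_2, 5.68% in MDSC_3 and 5.82% in MDSC_4. The highest of them was 1.499 times the lowest (1.46 to 1.53), and none reached the 15.4% of Macrophage_3, the next cluster above. These cells were shallow, with a median of 1047 UMIs, and across all 5482 cells the share rose with depth (Pearson's r of the share with log10 depth 0.703, over cells of 1 library that also differ in type). With the cells of MDSC_1 to MDSC_4 pooled and split by depth into 3 equal parts, the share showed no steady rise. The shallowest part (median 831 UMIs) held 6.47%, the middle part 5.88% and the deepest (median 1485 UMIs) 6.00%. Within single clusters the same r was 0.230 in MDSC_1, 0.141 in MDSC_2, 0.103 in MDSC_3 and -0.282 in MDSC_4. Macrophage_4 had a like median depth of 1053 UMIs and held 18.2%, so that MDSC_1 to MDSC_4 were at 0.334 times its share (0.329 to 0.339). CD3_T, at a median of 1367 UMIs, held 27.2%. Hepatoma marker transcripts, of which an immune cell should have none, were at 1660 CPM in MDSC_1 to MDSC_4 against 17167 CPM in tumour cells. They were at 3249 CPM in Macrophage_4 and 1518 CPM in CD3_T. Their part in the ribosomal protein UMIs of these clusters was not tested. With MDSC_5 added, whose share was 27.4%, the ratio to tumour cells became 0.408, and it was 0.251 when the 50 most abundant other genes of each class were left out of the totals.

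In the other classes that are not tumour cells, the share was higher in deeper cells. In T cells the shallowest, middle and deepest part held 24.4%, 26.4% and 29.7%, and in macrophages 15.2%, 17.3% and 19.7%. In DC they held 18.5%, 19.9% and 22.2%, and in fibroblasts and endothelial cells 19.5%, 20.1% and 22.6%. Tumor_4, the shallow tumour cluster with a median of 2483 UMIs, ran through 22.6%, 29.9% and 37.0%, while tumour cells as a whole stayed at 31.7%, 31.7% and 32.3%. Over single cells, Pearson's r of the share with log10 depth was still 0.266 in tumour cells. It was 0.426 in T cells, 0.391 in DC, 0.237 in macrophages and 0.148 in fibroblasts and endothelial cells. Among tumour clusters it ran from -0.011 in Tumor_10 to 0.691 in Tumor_4. The part of depth in the differences between classes was not tested beyond the minimum depths given with the processing.

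Among the 11 tumour clusters, Tumor_1 had the highest share with 38.4% of UMIs, and Tumor_11 the lowest with 27.5%, a ratio of 1.39 (1.389 to 1.398). In Tumor_1, 76 of the 77 core members were above their level in the other tumour cells (4406 of 13435 among all genes), but by little. Their median log2 ratio was 0.33, against -0.32 for all genes. Of the 77, 0 passed 1.5-fold (background 11.6% of 13435 genes past 1.5-fold higher). Rps27, a zinc finger protein of the small subunit, came nearest among the named core members at 3836 CPM in Tumor_1 against 2610 CPM in the other tumour cells, a ratio of 1.47 (1.45 to 1.49). Rpl4, the core member of lowest level, was level at 927 CPM in Tumor_1 against 925 CPM (0.979 to 1.02).

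The factors that build ribosomes went the other way in Tumor_1. Of 34 ribosome biogenesis genes, 29 were more than 1.5-fold lower than in the other tumour cells (background 37.1% past 1.5-fold lower) and 1 was higher, with a median log2 ratio of -1.19. Dkc1, the pseudouridine synthase of box H/ACA particles, was at 16.1 CPM in Tumor_1 against 76.6 CPM in the other tumour cells. Nop56, a core protein of box C/D particles that guide rRNA methylation, was at 56.6 against 157 CPM, and nucleolin (Ncl) at 887 against 1509 CPM. The exception was Sbds, which acts in the last step of large subunit maturation, with 106 CPM in Tumor_1 against 67.2 CPM in the other tumour cells. Of 78 ribosomal proteins of mitochondria, a separate family, 74 were below their level in the other tumour cells (9029 of 13435 among all genes). Past 1.5-fold lower were 53 (background 37.1%), with a median log2 ratio of -0.76.

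Several TOP mRNAs outside the family were higher in Tumor_1, 7 of 26 past 1.5-fold (background 11.6%), with a median log2 ratio of 0.38 over the list. The noncoding host genes of small nucleolar RNAs led them: Snhg6 was at 395 CPM in Tumor_1 against 110 CPM in the other tumour cells, Snhg12 at 138 against 48.2 CPM, Gas5 at 1396 against 576 CPM and Snhg1 at 317 against 158 CPM. Fau, which encodes a ubiquitin-like protein fused to a small subunit protein, was at 7232 against 4163 CPM, a ratio of 1.74 (1.72 to 1.75), and Tpt1, the translationally controlled tumour protein, at 6983 against 4081 CPM. Of 13 genes of Myc and mTOR control, 2 were higher, near the background of 11.6%, namely Rictor, a subunit of mTOR complex 2, at 124 against 59.7 CPM and Eif4ebp1, an inhibitor of cap-dependent translation, at 566 against 360 CPM, and Myc itself was at 32.0 against 36.9 CPM. Of 10 p53 targets, 2 were higher (background 11.6%) and 3 lower (37.1%), shares near those of all genes. Among them the cell cycle inhibitor Cdkn1a, singled out after its values were seen, was at 749 CPM in Tumor_1 against 180 CPM, a ratio of 4.15 (4.02 to 4.28). The cycling markers Mki67, Top2a and Cenpf summed to 21.05 CPM in Tumor_1, the lowest of the tumour clusters, against 36.9 to 1040 CPM in the other 10.

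In Tumor_11 the core members leaned the other way, with 76 of 77 below their level in the other tumour cells (6348 of 13435 among all genes). Their median log2 ratio was -0.23, and 0 were past 1.5-fold in either direction (background 15.4% lower and 19.9% higher). Tumor_1 and Tumor_11 had the highest and lowest share of the tumour clusters, so these counts partly restate those shares. The biogenesis genes of Tumor_11 were not lower as a group, with 2 of 34 past 1.5-fold lower and a median of -0.02.

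The CD8 T cell clusters spent nearly the same share on the family, 28.1% in CD8_T_1 and 28.6% in CD8_T_2, a ratio of 0.981 (0.975 to 0.988). Their depths were unlike, with a median of 5474.5 UMIs in CD8_T_1 and 2591 UMIs in CD8_T_2. Within each the share rose with depth (Pearson's r with log10 depth 0.647 and 0.421), and the part of depth in this ratio was not tested. Cycling markers differed, at 1607 CPM in CD8_T_1 against 245 CPM in CD8_T_2. None of the 77 core members was past 1.5-fold in either direction (background 22.2% of 8805 genes higher and 18.1% lower), and their median log2 ratio was -0.01. Of 34 ribosome biogenesis genes, 29 were above their CD8_T_2 level in CD8_T_1 (4600 of 8805 among all genes). Past 1.5-fold higher were 18, and the median log2 ratio was 0.59. Several of the 18 rest on few UMIs in CD8_T_2 and have an interval that includes 1. Examples are Nob1 (4 UMIs in CD8_T_2, 0.872 to 9.37) and Rrn3 (5 UMIs, 0.895 to 7.30). Nucleolin was at 2249 CPM in CD8_T_1 against 850 CPM in CD8_T_2, a ratio of 2.65 (2.36 to 2.97), and Tcof1, which helps RNA polymerase I transcribe rRNA, at 187 against 71.4 CPM, a ratio of 2.61 (1.77 to 4.01). Of the mitochondrial ribosomal proteins 23 of 78 were past 1.5-fold higher and 2 lower.

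Macrophage clusters ranged over 20.97% in Macrophage_2, 18.2% in Macrophage_4, 16.8% in Macrophage_1 and 15.4% in Macrophage_3. Macrophage_3 was at 0.733 times the share of Macrophage_2 (0.727 to 0.738). Median depth was 5380 UMIs in Macrophage_3 and 10587.5 UMIs in Macrophage_2. Within each the share rose with depth (Pearson's r with log10 depth 0.376 and 0.279), and the part of depth in this ratio was not tested. All 77 core members were below their level in the other macrophages in Macrophage_3 (5379 of 10752 among all genes). Their median log2 ratio was -0.33, and 1 passed 1.5-fold lower (background 18.1%). Macrophage_3 had the lowest share of these clusters, so the count partly restates that share.

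Within the family, core members over all cells had 916 to 9135 CPM with a median of 3729 CPM, levels counted per molecule at the 3′ end. Rpl41, the smallest protein of the large subunit, was highest at 9135 CPM, and Rps14, of the small subunit, was among the 3 highest at 7433 CPM. Rpl4 at 916, Rpl7a at 1092 and Rpl22 at 1386 CPM, all of the large subunit, were lowest. At least 1 UMI was found in more than 90% of cells for 64 of the 77, and in 83.7% for the least often seen, Rpl4. Small subunit members together held 0.794 UMIs per UMI of large subunit members in T cells, 0.879 in MDSC_1 to MDSC_4, 0.808 in macrophages, 0.838 in DC, 0.792 in fibroblasts and endothelial cells and 0.834 in tumour cells. T cells were thus below and MDSC_1 to MDSC_4 above tumour cells. With each member weighted alike T cells were again below, at 0.758 against 0.913 in tumour cells, but MDSC_1 to MDSC_4 were then below too, at 0.787.

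Against all other cells of the library, members past 1.5-fold were lower more often than higher in each immune and stromal class. The share of members lower was not far above that of all genes in DC (38.1%) and in fibroblasts and endothelial cells (35.7%). In T cells (10.7%) it was below that of all genes. In MDSC_1 to MDSC_4, 82 of 84 members were lower (background 44.7% of 15331 genes) and 1, Rpl3l, was higher (32.8%), and all 77 core members were among the lower ones with a median log2 ratio of -2.38. In macrophages 53 of 84 were lower (background 30.3%) and 1, Rpl3l, was higher (35.5%). In DC 32 were lower (30.4%) and 1, again Rpl3l, was higher (37%). In fibroblasts and endothelial cells 30 were lower (25.3%) and 0 higher (35.2%). In tumour cells 26 were higher (background 20.9%), led by Rpl30, Rps26, Rps21 and Rpl7, and 1, Rpl3l, was lower (40%). In T cells 5 were higher (background 33.7%), namely Rpsa, Rpl39, Rpl7a, Rpl26 and Rpl11, and 9 were lower (33%). Tumour cells, which held 88.5% of the member UMIs, set the base of these counts. With every other class weighted alike as the base, the counts of lower members were 80 in MDSC_1 to MDSC_4 (background 53.9%), 1 in macrophages (33.4%), 2 in DC (35.3%), 1 in fibroblasts and endothelial cells (31.6%) and 1 in T cells (42.3%). The counts of higher members were then 28 of 84 in T cells (background 23.6%) and 53 of 84 in tumour cells (20.3%). Past 2-fold against all other cells, 81 members were lower in MDSC_1 to MDSC_4 (background 36.6%), 17 in macrophages (21.8%), 8 in DC (21.8%), 5 in fibroblasts and endothelial cells (16.7%) and 1 in T cells (25.4%). Past 2-fold higher were 2 members in tumour cells (background 13.2%) and 0 in T cells (22.8%).

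Taken against tumour cells directly, a core member in MDSC_1 to MDSC_4 was at 0.0962 to 0.646 times its tumour level, with a median of 0.186. The same range was 0.475 to 1.76 in T cells (median 0.891), 0.321 to 1.07 in macrophages (0.586), 0.378 to 1.27 in DC (0.667), and 0.384 to 1.17 in fibroblasts and endothelial cells (0.686).

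The fall in MDSC_1 to MDSC_4 was uneven. Rps27 had 2098, 1531, 1661 and 1889 CPM in MDSC_1, MDSC_2, MDSC_3 and MDSC_4, against 2789 CPM in tumour cells, a ratio of 0.646 for the 4 together (0.614 to 0.680). Rps9, a small subunit protein near the mRNA entry channel, had 1677, 2390, 1577 and 1675 CPM, against 3962 CPM in tumour cells, a ratio of 0.461 (0.438 to 0.485). Rps29, another zinc finger protein of the small subunit, had 2449, 1455, 1630 and 1643 CPM, against 5050 CPM, a ratio of 0.363 (0.345 to 0.382). In each of the 4 clusters these 3 were below tumour cells, and by less than the median member.

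At the other end, Rpl3, which reaches toward the peptidyl transferase centre, had 276, 124, 244 and 214 CPM in the 4 clusters, against 2206 CPM in tumour cells, a ratio of 0.0988 (0.0851 to 0.114). Rps18, of the head of the small subunit, had 807, 477, 841 and 648 CPM, against 7329 CPM, a ratio of 0.0962 (0.0886 to 0.104). Both were low in all 4 clusters, with MDSC_2 lowest for each. Rpl5 and Rpl11, the partners of Mdm2, were at 0.181 (0.159 to 0.204) and 0.231 (0.211 to 0.251) times their tumour level. Rplp0, the base of the stalk that recruits translation factors, was at 0.146 times (0.134 to 0.158) and Rps6, the target of S6 kinase, at 0.178 times (0.161 to 0.197).

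**Figure D2:**
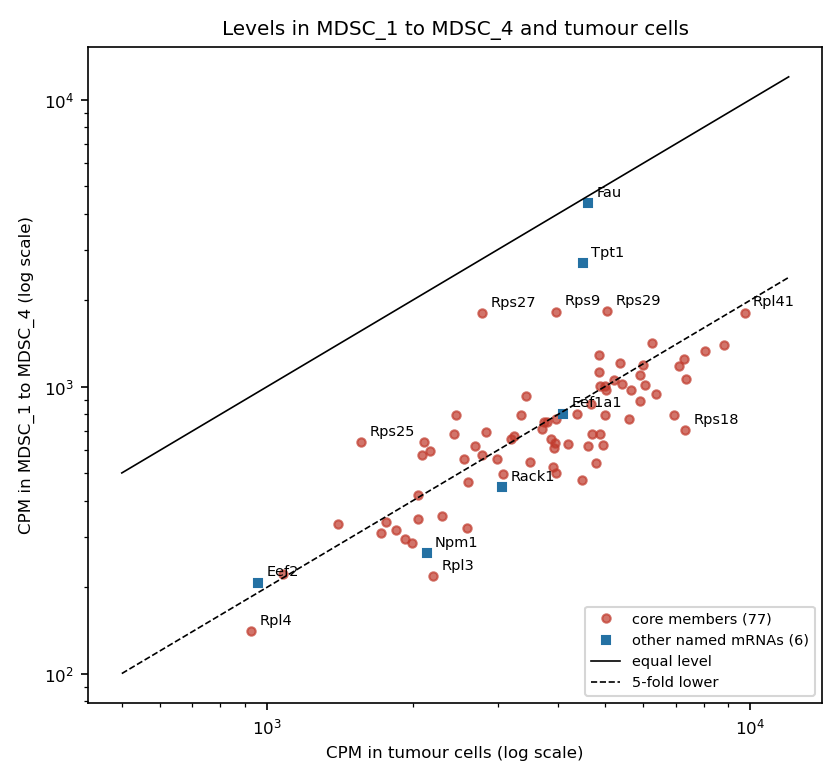
CPM in MDSC_1 to MDSC_4 (vertical, log scale) against CPM in tumour cells (horizontal, log scale) for the 77 core members (circles) and 6 other named mRNAs (squares), with lines for an equal level and for a level 5-fold lower. Most members lie along the dashed line, Rps27, Rps9, Rps25 and Rps29 above it, and Fau close to the line of equal level at 4365 against 4610 CPM.

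Measured as a part of the family's own total, which takes the overall fall out, 6 core members were over 0.5 on the log2 scale above their part in all cells in each of MDSC_1 to MDSC_4. These were Rps27, Rps9, Rps25, Rps29, Rpl35a and Rpl9, with 1.75, 1.26, 1.05, 0.87, 0.69 and 0.64 for the 4 clusters together. Another 5 were more than 0.5 below it in each, namely Rpl3 (-0.96), Rps18 (-0.95), Rps4x (-0.81), Rpl12 (-0.72) and Rps2 (-0.70). In cells with at least 2000 UMIs these 11 kept their signs, with 1.54 for Rps27 from 229 UMIs and -1.35 for Rpl3 from 24 UMIs.

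Other mRNAs of the translation machinery fell with the family in MDSC_1 to MDSC_4. Of 26 TOP mRNAs outside it, 24 were past 1.5-fold lower than in all other cells, as were 32 of 34 ribosome biogenesis genes and 66 of 78 mitochondrial ribosomal proteins (background 44.7% for each). Rack1, a scaffold on the small subunit, was at 446 CPM against 3067 CPM in tumour cells, and the elongation factor Eef1a1 at 805 against 4103 CPM. Fau did not follow: it had 4365 CPM in MDSC_1 to MDSC_4, against 4610 CPM in tumour cells, a ratio of 0.947 (0.916 to 0.978). Tpt1 was between, at 2688 against 4505 CPM, a ratio of 0.597 (0.572 to 0.622). Rack1 and the ribosomal protein in Fau belong to the ribosome but not to the 85 rows, since their symbols do not carry the Rpl or Rps prefix. Of 13 Myc and mTOR genes 8 were lower (background 44.7%) and 1, Rheb, was higher (32.8%). Myc was at 2.36 CPM in MDSC_1 to MDSC_4 against 36.2 CPM in tumour cells. The first value comes from 0 UMIs in MDSC_3 and 2 UMIs in the other MDSC clusters. It lies below the floor of 3.54 CPM that 3 UMIs give in this class. Of 10 p53 targets 5 were lower and 3 higher, near the same backgrounds, and Cdkn1a was at 704 CPM against 263 CPM in tumour cells.

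T cells kept the family high but made it up differently from tumour cells. Rpsa had 6180 CPM in CD8_T_1 and 6273 CPM in CD8_T_2, against 2943 to 4013 CPM over the 11 tumour clusters, and in T cells together it was 1.76 times its tumour level (1.73 to 1.79). Rpl39, a small protein lining the exit tunnel, had 3429 and 4079 CPM in these clusters, against 1733 to 2810 CPM in tumour clusters, and was 1.68 times its tumour level in T cells (1.64 to 1.71). In both, the CD8 clusters and the tumour clusters did not overlap. Of 84 members, 11 had both CD8 clusters above every tumour cluster (background 22.9% of 15331 genes) and 29 had both below (18.5%), all within 1 library. Rpl7a (1.63 times), Rpl26 (1.54) and Rpl11 (1.47) were also higher than in tumour cells. Rpl30 was at 0.475 times its tumour level (0.463 to 0.487), Rps14 at 0.513 (0.502 to 0.524), Rps21 at 0.513 (0.5002 to 0.527) and Rpl7 at 0.540 (0.524 to 0.556).

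Some of this make-up was common to the cells that were not tumour. On the log2 scale of the part of the family's total, 3 core members were over 0.3 above all cells in each of the 5 other classes, namely Rpl26, Rpl35a and Rpl39, and 1, Rpl30, was more than 0.3 below in each. Rpl30 was at -0.84 in T cells, -0.30 in MDSC_1 to MDSC_4, -0.79 in macrophages, -0.70 in DC, -0.71 in fibroblasts and endothelial cells and 0.06 in tumour cells. Rpl26, which binds the p53 mRNA, was at 0.71, 0.45, 0.80, 0.86 and 0.60 in the same 5 classes and at -0.09 in tumour cells. Tumour cells lie near 0 by construction, since they hold most of the UMIs. Rpsa separated the classes further, being above all cells in T cells (0.91), macrophages (0.56), DC (0.52) and fibroblasts and endothelial cells (0.53) and below in MDSC_1 to MDSC_4 (-0.37).

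Over the 26 clusters the SD of this log2 part had a median of 0.211 among the 77 core members and ran from 0.0786 to 0.667, with 20 members over 0.3. The 8 most variable were Rps27, Rps9, Rpsa, Rpl3, Rps29, Rpl39, Rps25 and Rpl26. The 4 steadiest were Rpl27a, Rps3a1, Rps23 and Rpl23a, with an SD of 0.106 or less. With cells of at least 2000 UMIs, which leaves 19 clusters and none of the MDSC ones with enough cells, 13 members were over 0.3 and 4 of the 8 most variable were the same.

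**Figure D3:**
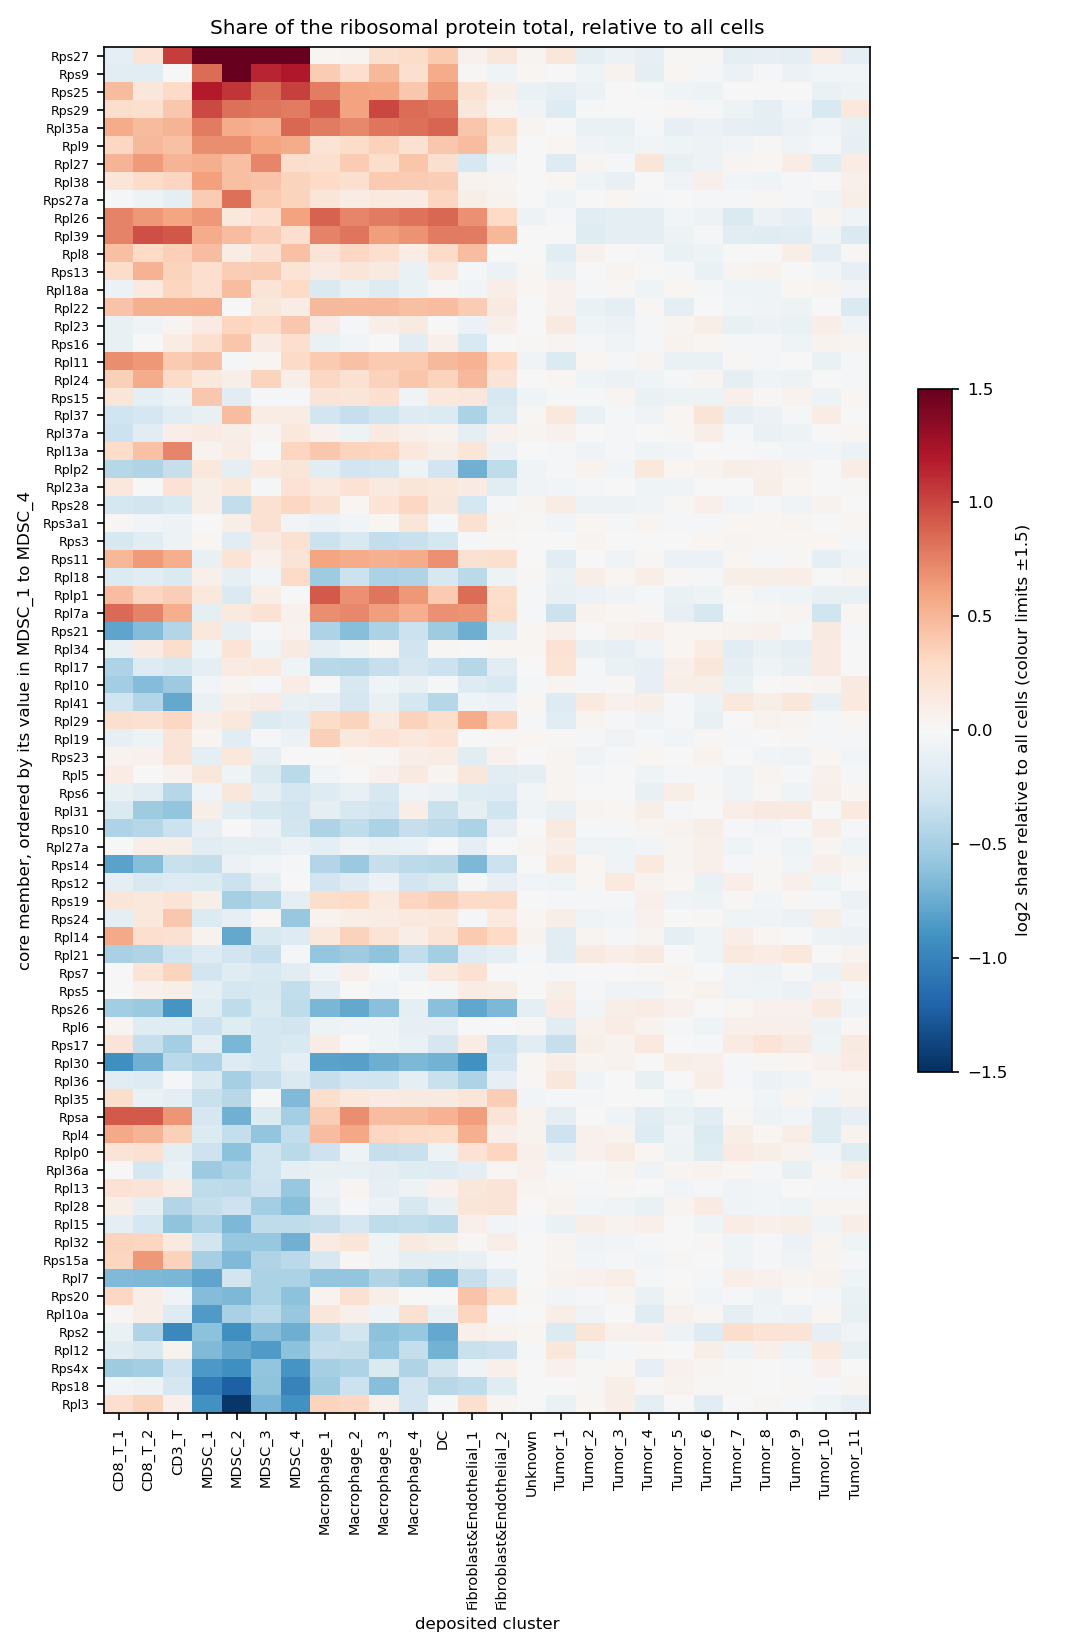
Colour gives the log2 of each core member's part of the family total relative to all cells, for 76 of the 77 members (rows, ordered by their value in MDSC_1 to MDSC_4) in 26 clusters (columns). The tumour clusters on the right are pale, MDSC_1 to MDSC_4 are strongest at the top (Rps27, 1.67 to 1.88) and bottom (Rpl3, -1.46 to -0.69), and Rpl30 and Rps26 are low in T cells, macrophages and DC.

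The relatives did not simply follow their partners. Rpl22l1, the paralog of the RNA-binding protein Rpl22, made up 22.5% of the pair in MDSC_1 to MDSC_4 (18.3% to 27.2%), 23.0% in DC, 29.0% in macrophages (27.9% to 30.1%), 33.5% in T cells (32.2% to 34.7%), 37.6% in fibroblasts and endothelial cells (35.8% to 39.4%) and 40.5% in tumour cells (40.3% to 40.8%). Among clusters it ran from 14.97% in MDSC_1 to 44.3% in Tumor_5, with a median of 37.6%. Its level was 96.7 CPM in MDSC_1 to MDSC_4 and 956 CPM in tumour cells, while Rpl22 was at 332 and 1403 CPM.

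Rps27l, which in human cells is induced by p53, was 2.94% of its pair with Rps27 in CD3_T (2.02% to 4.13%) and 23.5% in Macrophage_4 (19.1% to 28.4%), with a median of 16.0% over clusters. In CD8 T cells it was 20.5% in CD8_T_1 (19.3% to 21.7%) and 11.4% in CD8_T_2 (9.75% to 13.3%). In Tumor_1 it was 5.72% (5.48% to 5.96%), the lowest of the tumour clusters, with 233 CPM in Tumor_1 against 513 CPM in the other tumour cells. The 10 p53 targets went both ways in the same cluster. Past 1.5-fold higher were 2 (background 11.6%), Cdkn1a and Mdm2. Past 1.5-fold lower, as Rps27l was, were 3 (background 37.1%), Aen, Phlda3 and Bax.

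Rpl36al ran from 33.2% of its pair with Rpl36a in Tumor_1 to 57.9% in MDSC_1 (50.5% to 65.0%), with a median of 41.3%. Rpl7l1 was 1.22% of its pair with Rpl7 in Tumor_1 (1.12% to 1.33%) and 10.3% in MDSC_1 (5.87% to 16.4%, from 15 UMIs). Rps19bp1 stayed at 5.56% or less of its pair with Rps19. Rps27rt was 2.34% of its pair with Rps27 in MDSC_3 and 5.06% in MDSC_4, the lowest and the highest cluster, with a median of 3.01%. Its annotated transcript shares an unbroken stretch of 341 bases with that of Rps27, against 11 bases for Rps27l, so counts of Rps27 and Rps27rt are uncertain where the counting could split them.

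Rpl3l, in mammals a paralog of Rpl3 made in heart and skeletal muscle, was rare, with 41 UMIs in 39 cells. It was found in 14 of 707 cells of MDSC_1 to MDSC_4 (1.98%, 1.09% to 3.30%, median depth 1047 UMIs), 12 of 532 macrophages (2.26%, median depth 6946.5 UMIs), 6 of 208 DC cells (2.88%, median depth 3796 UMIs) and 5 of 3213 tumour cells (0.156%, 0.0505% to 0.363%, median depth 20428 UMIs). It had a UMI in 0 of 382 T cells (median depth 3856.5 UMIs), and a floor of 3 cells then allows a share of cells with a UMI of up to 0.785%. It had a UMI in 0 of 150 fibroblasts and endothelial cells (median depth 9775 UMIs), where the floor allows up to 2%. These floors limit cells with a UMI, not cells that express the gene. Its level was 17.7 CPM in MDSC_1 to MDSC_4 from 15 UMIs and 0.0800 CPM in tumour cells from 5 UMIs. In the same MDSC clusters Rpl3 itself was among the lowest members. The longest stretch that the 2 transcripts share is 22 bases. Rpl39l, in mammals a testis form of Rpl39, had 8 UMIs in 6 cells, of which 3 UMIs lay in T cells, 4 in macrophages and 0 in MDSC_1 to MDSC_4, DC, fibroblasts and endothelial cells, and tumour cells.

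**Figure D4:**
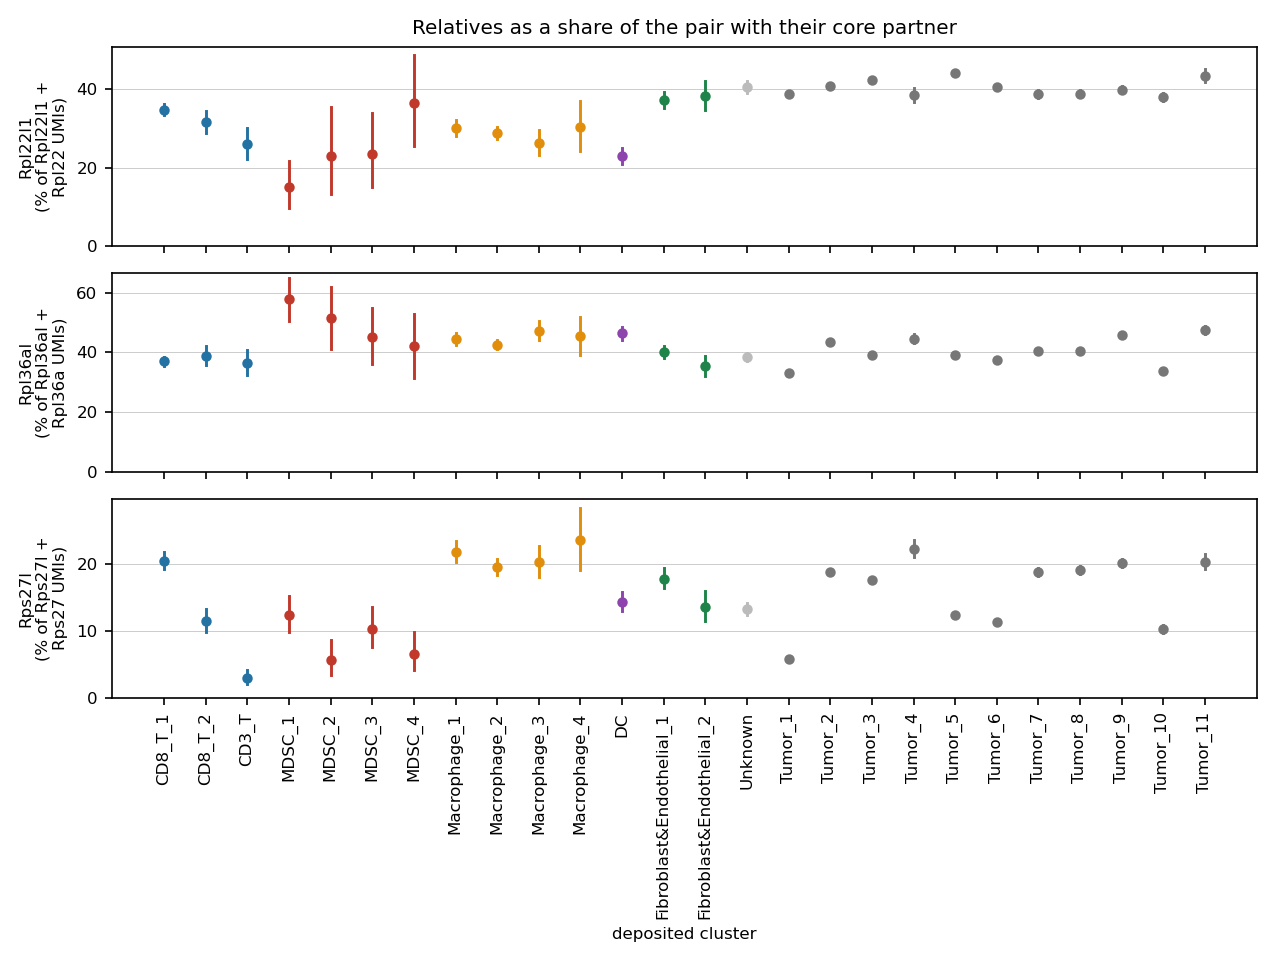
Relatives as a percentage of the summed UMIs of the relative and its core partner (vertical axes) in each cluster with at least 50 cells, with exact 95% intervals for counting error. Rpl22l1 is lowest in MDSC_1 (14.97%), Rpl36al highest there (57.9%), and Rps27l is 20.5% in CD8_T_1 against 11.4% in CD8_T_2 and 5.72% in Tumor_1.

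Rpl7, a large subunit protein, could be compared between the antibody and IgG libraries. It was lower in the antibody library in tumour cells, with 3952 CPM in antibody against 4523 CPM in IgG, a ratio of 0.874 (0.869 to 0.878). The ratio was below 1 in all 11 tumour clusters, between 0.850 in Tumor_10 and 0.932 in Tumor_9, and every interval lay below 1. In T cells Rpl7 was at 2134 CPM in antibody against 2370 CPM in IgG, a ratio of 0.900 (0.857 to 0.945). Macrophages had 1491 against 1478 CPM, a ratio of 1.01 (0.968 to 1.05), DC 1562 against 1665 CPM (0.938, 0.864 to 1.02), and fibroblasts and endothelial cells 2089 against 2289 CPM (0.913, 0.861 to 0.968). In MDSC_1 to MDSC_4 the ratio was 0.687 (0.586 to 0.808), from 423 UMIs in antibody and 243 UMIs in IgG. With at least 2000 UMIs it was 1.21 (0.699 to 2.25), from 95 UMIs in 50 antibody cells and 15 UMIs in 10 IgG cells. The 2 intervals overlap, so whether the ratio depended on shallow cells cannot be told from these counts. Without MDSC_1, whose own ratio was 0.551, the other MDSC clusters compared were at 0.809 in MDSC_2 and 0.753 in MDSC_4.

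Of 23 clusters with at least 50 cells in each library, 21 had a ratio below 1, in 17 of them with the interval below 1, and in 0 the interval lay above 1. The 2 above 1 were Macrophage_3 and Macrophage_4. These clusters are parts of the same 2 libraries and not replicates. The same count for the other shared genes is not given, so how unusual it is cannot be told. In tumour cells the 74 shared genes with at least 50 UMIs had a median log2 ratio of 0.07 and 8 of them were lower than Rpl7. The libraries held 1 sample each, so antibody, mouse and library cannot be told apart, and whether the rest of the family moved with Rpl7 was not analysed here.

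**Figure D5:**
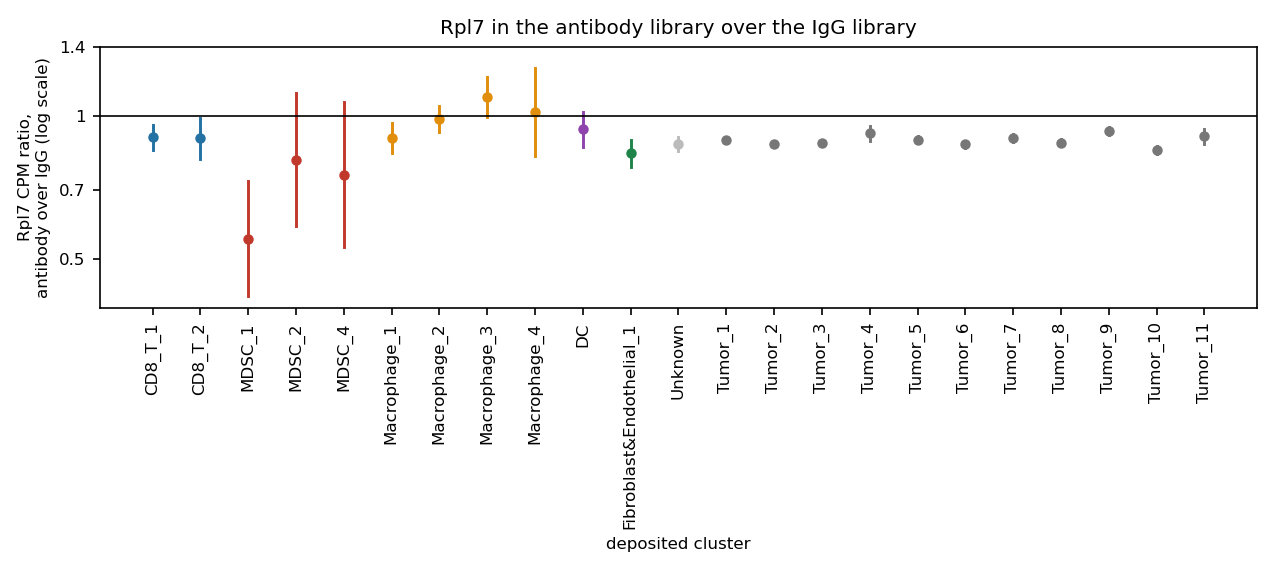
Ratio of Rpl7 CPM in the antibody library over the IgG library (vertical axis, log scale) in 23 clusters, with exact 95% intervals for counting error. All 11 tumour clusters lie below 1, between 0.850 and 0.932, and Macrophage_3 and Macrophage_4 lie above it.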

How the data were processed

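The submitters' processing notes name Cell Ranger 2.1.1 for these 10x 3′ libraries; the sources used here state no build, cell filter or clustering method. The authors deposited a cluster name for each cell and values on a natural log scale. A check of the values showed each to be the log of 1 plus the cell's UMI count for the gene, scaled to 10000 UMIs per cell. UMI counts were recovered from them (Python 3.11.15, numpy 2.4.6, scipy 1.17.1, pandas 2.3.3), whole within a tolerance of 0.001 for 5482 antibody cells. For IgG cells 105 genes were complete. Depth was recovered from these for 5739 of 5765 IgG cells (85804877 UMIs, median 15733), a step that equalled the true depth in 5440 antibody cells, differed in 8 and gave none in 34. Cells without such a depth were left out of the comparison of libraries, which share 11 barcodes. No cells were removed and no doublet caller was run.

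UMIs were summed per cluster or class and scaled to 1000000 per cluster or class (CPM). Ratios have exact conditional and shares exact Clopper-Pearson 95% intervals, for counting error only. A gene counted as past 1.5-fold from log2 ratios with a prior count of 0.5, among genes with at least 10 UMIs. Members named were the relatives with their partners, the 8 most and 4 least variable core members, the 3 highest and 3 lowest by CPM, Rpl7, and Rplp0, Rpsa, Rps6, Rpl5, Rpl11, Rack1 and Fau; others are named for their place at an end of a range and were chosen after their values were seen. Some genes that this rule names are not reported here. The members, gene lists and classes were chosen with earlier results of these data known. Relatives were compared with their core partners in GENCODE release M21 transcripts. The steps were tested on simulated data. Plots were drawn with matplotlib 3.10.9.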

Additional observations from a re-analysis of the deposited data

Results flagged for a closer look

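The 4 rows left out because their symbol carries "-ps" were not empty. Rpl10-ps3 held 7279 UMIs, Rpl9-ps6 3655 UMIs and Rpl36a-ps1 1679 UMIs over all cells of the antibody library, each far above the 3 UMIs that a count of 0 allows, while Rpl9-ps1 held 2 UMIs. Together they had 43.6 CPM in MDSC_1 to MDSC_4 and 180 CPM in tumour cells.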

How the results depend on the processing

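Shares over tumour cells stayed below 1 under every alternative run, 12 each for T cells, MDSC_1 to MDSC_4 and macrophages and 11 each for DC and for fibroblasts and endothelial cells. In that order, a mean over cells gave 0.842, 0.192, 0.553, 0.632 and 0.656, mitochondrial genes left out of the totals 0.868, 0.186, 0.574, 0.646 and 0.651, and the 5 members with the most UMIs left out 0.897, 0.195, 0.591, 0.671 and 0.679. At least 2000 UMIs gave 0.892, 0.205, 0.580 and 0.661 for the first 4, and at least 1000 gave 0.186 for MDSC_1 to MDSC_4. Without the deepest 5% of cells the values were 0.873 for T cells, 0.185 for MDSC_1 to MDSC_4, 0.574 for macrophages and 0.655 for fibroblasts and endothelial cells. Clusters weighted alike gave 0.897 for T cells, 0.564 for macrophages, 0.662 for DC and 0.722 for fibroblasts and endothelial cells. Chosen after seeing the data were CD3_T added to T cells (0.879), MDSC_5 added (0.408) and the 50 most abundant other genes left out (0.251 for MDSC_1 to MDSC_4, 0.623 for macrophages, 0.708 for DC, 0.680 for fibroblasts and endothelial cells). Counts past 1.5-fold moved with the base and with the fold, and the shares of all genes are given with them above. Past 2-fold they were 0 higher and 1 lower in T cells, 81 lower in MDSC_1 to MDSC_4, 17 lower in macrophages, 8 in DC, 5 in fibroblasts and endothelial cells and 2 higher in tumour cells. With other classes weighted alike as the base they were 28 higher and 1 lower in T cells, 80 lower in MDSC_1 to MDSC_4, 1, 2 and 1 lower in macrophages, DC and fibroblasts and endothelial cells, and 53 higher in tumour cells. As parts of all UMIs in place of the family total, 77 core members had an SD over 0.3. As parts of the family total in cells with at least 2000 UMIs, 13 did, against 20 over all cells. The ratio of small to large subunit UMIs with members weighted alike was 0.758 in T cells, 0.787 in MDSC_1 to MDSC_4 and 0.913 in tumour cells, and with core members only 0.8003 in T cells and 0.842 in tumour cells. With the median ratio of shared genes set to 1, Rpl7 was at 0.834 in tumour cells, 0.820 in T cells and 0.566 in MDSC_1 to MDSC_4, and clusters weighted alike gave 0.890 in tumour cells. It was 1.21 in MDSC_1 to MDSC_4 with at least 2000 UMIs, where few cells were left and the interval was wide. No paired analysis was possible because each group had 1 library. No value has a replicate check, shallow clusters leave few UMIs per member, and free RNA was not modelled.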
